A study of Mus musculus with 9 samples.

Results

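The forkhead, Sox and T-box genes encode transcription factors that set cell fate in the embryo. Members were taken by symbol alone, as Fox with a letter and a number, Sox with a number or Tbx with a number, so no measured value chose them. This gave 76 of the 26611 named genes in the count tables: 44 forkhead, 19 Sox and 13 T-box genes. The cells were mouse MLL-ENL leukemia cells, in which a Kmt2a-Mllt1 fusion protein drives a myeloid leukemia. H3K27me3, H3K4me3 and the Flag tag (M2 antibody) were each profiled by chromatin immunoprecipitation and sequencing, with 1 library in each of 3 genotypes. The rescue line is labelled ΔERT2 + Hhex-F and holds Flag-tagged Hhex, the deleted line is labelled ΔERT2, and the floxed line is labelled fl. All 3 share the MLL-ENL fusion, and the rescue line shares the deletion. Hhex is taken to be the floxed gene from the title of the series and the tag, since no label says so. The number of animals or clones behind a line, the promoter of the tagged gene and the treatment that gave the deletion are not given in the sources used here.

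Each value below comes from a single library, so no difference has a replicate check and no p-value is given. Named genes held 4203349 (rescue), 2535576 (deleted) and 2444487 (floxed) H3K27me3 counts, and 395133, 420701 and 645240 H3K4me3 counts in the rescue, deleted and floxed libraries. H3K27me3 was counted over whole gene spans and is given as density, in CPM (counts scaled to a common library total) per kb of the gene length in the file. For some genes this length differs from the span between the RefSeq positions given below. For H3K4me3 the authors counted 301 bp per gene, and no source used here says where this window lies. In a population of cells, a lower share of cells with a mark and less mark per cell cannot be told apart. With 1 library per genotype and no input library used here, neither can be told apart from a less efficient immunoprecipitation. Of 14 myeloid marker genes, 10 had a mean of at least 20 H3K4me3 counts, and their list summed to 1734 CPM (rescue), 1609 CPM (deleted) and 1796 CPM (floxed). The T and NK cell list summed to 15.5 to 48.1 CPM with 0 of 8 markers at that level, and the B cell list to 53.1 to 78.4 CPM with 1 of 6. Stromal and endothelial markers summed to 75.9 to 105 CPM with 1 of 7, neural markers to 57.3 to 73.7 CPM with 1 of 5, and erythroid markers to 30.9 to 48.1 CPM with 0 of 4. Lck of T cells and Rbfox3 of neurons had 0 counts in all 3 libraries, and the part of other cell types in the results was not tested. Ptprc, the pan-leukocyte CD45 gene, also had 0 counts in all 3, so an empty window does not show that a gene lacks the mark.

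Forkhead proteins bind DNA through a winged-helix domain, Sox proteins through an HMG box that bends DNA, and T-box proteins through the T-box domain. Most are switched on in narrow parts of the embryo, such as Foxa genes in endoderm, Sox17 in endoderm and vessels, and Tbx1 in the pharyngeal arches. Polycomb repressive complex 2 (PRC2) places H3K27me3 over such genes in cells that do not use them, commonly at CpG-rich promoters. H3K4me3 marks active promoters, and genes with both marks in embryonic stem cells are called bivalent. A smaller group of the family works in blood cells, among them the Foxo factors, the cell-cycle factor Foxm1 and Sox4.

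The promoters of 6 members are shown because these genes carry the contrasts described below: Foxd1 and Foxi1 (H3K27me3 differing between genotypes at a CpG-richer and a CpG-poor start), Foxl2 and Foxo1 (H3K4me3 differing between genotypes), Sox11 (low H3K27me3 in the rescue library) and Foxj2 (the highest H3K4me3 among members with almost no H3K27me3). Each line gives the 250 bases before the RefSeq start on build GRCm38.p6, which is the assembly of mm10, with every CG in capitals.
Foxd1: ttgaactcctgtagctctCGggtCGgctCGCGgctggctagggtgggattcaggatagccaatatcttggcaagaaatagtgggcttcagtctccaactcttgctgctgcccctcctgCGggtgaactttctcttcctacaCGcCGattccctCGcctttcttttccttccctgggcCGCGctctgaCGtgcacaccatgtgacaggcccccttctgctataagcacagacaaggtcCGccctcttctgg
Foxi1: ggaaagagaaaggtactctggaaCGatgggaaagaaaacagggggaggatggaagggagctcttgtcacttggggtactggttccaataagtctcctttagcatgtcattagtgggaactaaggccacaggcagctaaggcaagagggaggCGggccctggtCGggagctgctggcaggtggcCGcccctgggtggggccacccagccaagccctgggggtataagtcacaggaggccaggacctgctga
Foxl2: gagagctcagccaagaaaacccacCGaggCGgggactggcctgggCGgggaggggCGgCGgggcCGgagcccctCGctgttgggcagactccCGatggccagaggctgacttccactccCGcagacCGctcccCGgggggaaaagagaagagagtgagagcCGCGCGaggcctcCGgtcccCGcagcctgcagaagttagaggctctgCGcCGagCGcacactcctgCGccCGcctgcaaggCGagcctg
Foxo1: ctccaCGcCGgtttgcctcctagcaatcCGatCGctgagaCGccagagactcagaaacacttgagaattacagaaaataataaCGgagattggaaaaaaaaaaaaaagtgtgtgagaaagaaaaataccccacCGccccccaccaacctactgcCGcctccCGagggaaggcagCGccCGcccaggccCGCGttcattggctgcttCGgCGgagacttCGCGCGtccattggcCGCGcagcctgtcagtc
Sox11: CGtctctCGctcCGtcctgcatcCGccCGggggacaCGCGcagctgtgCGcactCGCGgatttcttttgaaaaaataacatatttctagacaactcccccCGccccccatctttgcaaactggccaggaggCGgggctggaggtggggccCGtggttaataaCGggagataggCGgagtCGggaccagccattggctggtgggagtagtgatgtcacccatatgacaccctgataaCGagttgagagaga
Foxj2: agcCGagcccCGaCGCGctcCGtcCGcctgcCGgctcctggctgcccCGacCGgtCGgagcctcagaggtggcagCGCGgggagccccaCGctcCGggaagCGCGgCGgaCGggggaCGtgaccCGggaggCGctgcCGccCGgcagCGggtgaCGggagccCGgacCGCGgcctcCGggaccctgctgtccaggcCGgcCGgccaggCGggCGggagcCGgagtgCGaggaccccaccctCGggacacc

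The Foxd1 promoter (chr13:98353995-98354244, plus strand) held 12 CG, and 33.5% of 32851 RefSeq promoter windows of this length held at least as many. Foxi1 (chr11:34208090-34208339, minus strand) held 4, a number reached by 62.2% of windows. Foxl2 (chr9:98955357-98955606, plus strand) held 22, reached by 14.8%, and Foxo1 (chr3:52268087-52268336, plus strand) held 20, reached by 17.9%. Sox11 (chr12:27342719-27342968, minus strand) held 17, reached by 23.5%, and Foxj2 (chr6:122819934-122820183, plus strand) held 36, reached by 2.58%. The Foxj2 window was thus the richest in CG of these 6 and the Foxi1 window the poorest. A promoter could be matched for 50 of 76 members (65.8%), so a check of CpG content over the family is void, since under 80% of members have a value.

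Dense H3K27me3 lay over 35 of the 76 members, and H3K4me3 at the counted window of 23. A gene was called Polycomb-covered when its mean density over the 3 libraries was in the top 10% of genes averaging 20 H3K27me3 counts or more, which meant at least 8.26 CPM per kb against a median of 1.67. By this rule 46.1% of members were covered, compared with 3.99% of all named genes. They were 22 of 44 forkhead, 9 of 19 Sox and 4 of 13 T-box genes. Coverage was more frequent in other developmental families, at 29 of 39 Hox genes and 67 of 86 non-Hox homeobox and Pax genes. Of the 35 covered members, 12 also had a mean of at least 20 H3K4me3 counts and are called doubly marked, and 23 did not and are called Polycomb-only. Another 11 members (14.5%, against 24.0% of named genes) had H3K4me3 without dense H3K27me3 and are called active here, and 30 met neither level. The 14 members averaging under 20 H3K27me3 counts could not be called covered and fall in the 11 or the 30. Among them Sox1 is counted in the 11 and Sox2 in the 30, although the H3K27me3 of both was not measured, as described below. Just above the density limit lay Sox3 and Tbx4 at 10.4 CPM per kb, and just below it Tbx21 at 8.08 and Sox10 at 7.96, so the 30 include genes with moderate H3K27me3. These 30 ranged from 0 to 8.08 CPM per kb (median 1.28) and from 0 to 33.4 CPM of H3K4me3, and the 23 Polycomb-only members from 10.4 to 37.5 CPM per kb (median 18.8) and from 1.69 to 35.9 CPM of H3K4me3.

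**Figure D1:**
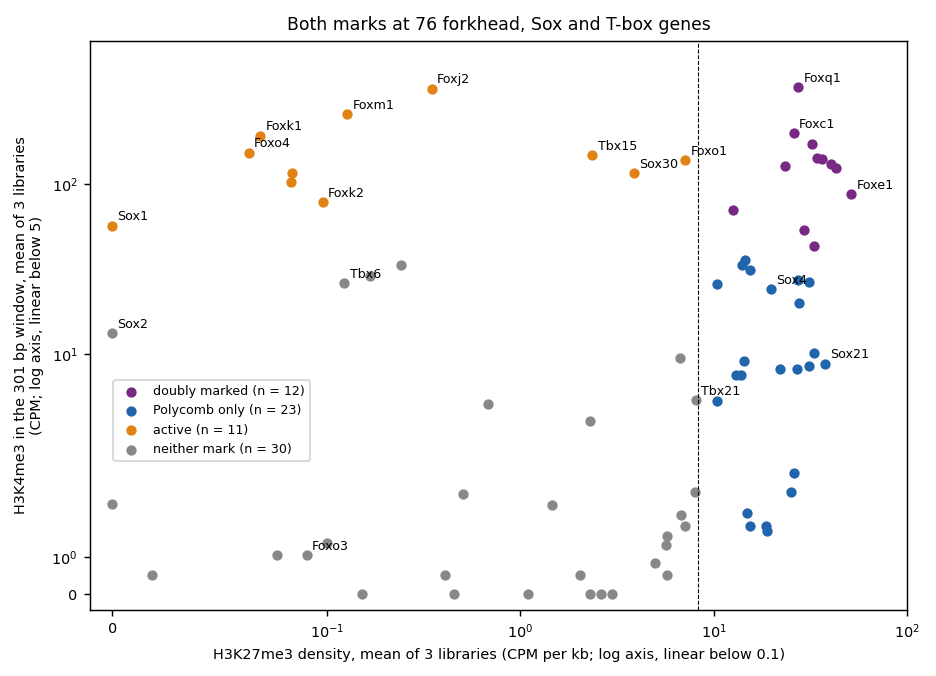
Mean H3K27me3 density (CPM per kb of gene length) against mean H3K4me3 in the counted window (CPM) for the 76 members, each the mean of 3 libraries; colours give the 4 classes and the dashed line the limit of 8.26 CPM per kb. The 12 doubly marked members lie at the upper right, and 8 of the 11 active members lie at the upper left, at 0.35 CPM per kb or less; 1 of the 8 is Sox1, whose H3K27me3 was not measured.

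Coverage by role ranged from none to all members of a group. Of 14 forkhead genes of neural, sensory, kidney and gonad development, 12 were covered, with 13 assessed for H3K27me3. The 1 not assessed, Foxh1, had 0 H3K27me3 counts in all 3 libraries and overlaps the counted gene Kifc2. Of 7 forkhead genes grouped under mesoderm and vessels (Foxc1, Foxc2, Foxf1, Foxf2, Foxl1, Foxq1 and Foxs1), 6 were assessed and 6 covered. This group holds Foxq1, described below as a gene of epithelium and hair. The SoxF genes Sox7, Sox17 and Sox18, which act in vessels and endoderm, were all covered (3 of 3), as were 3 of 5 SoxB genes of the early neural tube and 2 of 3 Foxa genes. The other SoxB genes, Sox1 and Sox2, had no measured H3K27me3, as described below, so all 3 SoxB genes assessed were covered. None of 3 SoxD genes (Sox5, Sox6 and Sox13), of 4 Foxp genes or of 7 broadly expressed Foxj, Foxk, Foxm and Foxn genes was covered. Only 3 of these Foxp genes and 3 of the broadly expressed genes were assessed for H3K27me3. Density depends on span length, since the mark can sit on part of a long gene: covered members had a median length of 3249 bp and active members of 49822 bp. Sox6, for example, held 5024, 2933 and 2748 H3K27me3 counts in the rescue, deleted and floxed libraries over 567401 bp, a mean density of 2.04 CPM per kb.

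Foxe1, a thyroid and palate factor (chromosome 4, 46343644 to 46345774, mm10), was the densest member by the authors' gene lengths. It had 53.7, 41.0 and 59.7 CPM per kb in the rescue, deleted and floxed libraries. Its length given by the authors, 1116 bp, is shorter than these positions span. The same holds for Foxe3 (867 bp) and Foxf1 (2406 bp), so the ranks of these genes depend on the length used. Foxe3, a lens factor, had 47.5, 33.7 and 47.2 CPM per kb in rescue, deleted and floxed. In both genes the deleted library was the lowest. Foxd1, a factor of kidney stroma and retina, had 44.3, 27.4 and 50.2 CPM per kb, and Sox21, a SoxB factor of neural progenitors, had 42.0, 29.6 and 40.9 CPM per kb in the same libraries. Tbx1, the pharyngeal T-box gene, had 38.1, 28.4 and 42.6, Foxl2 of the ovary 37.4, 27.5 and 37.5 and Sox18 of lymphatic vessels 41.0, 24.5 and 33.8 CPM per kb in rescue, deleted and floxed. Foxf1, Tbx2 and Foxd2 completed the 10 densest members, at means of 33.0, 32.3 and 31.2 CPM per kb. All 10 had their lowest density in the deleted library. Across the 35 covered members the median density was 25.7 CPM per kb in rescue, 20.8 in deleted and 28.7 in floxed.

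**Figure D2:**
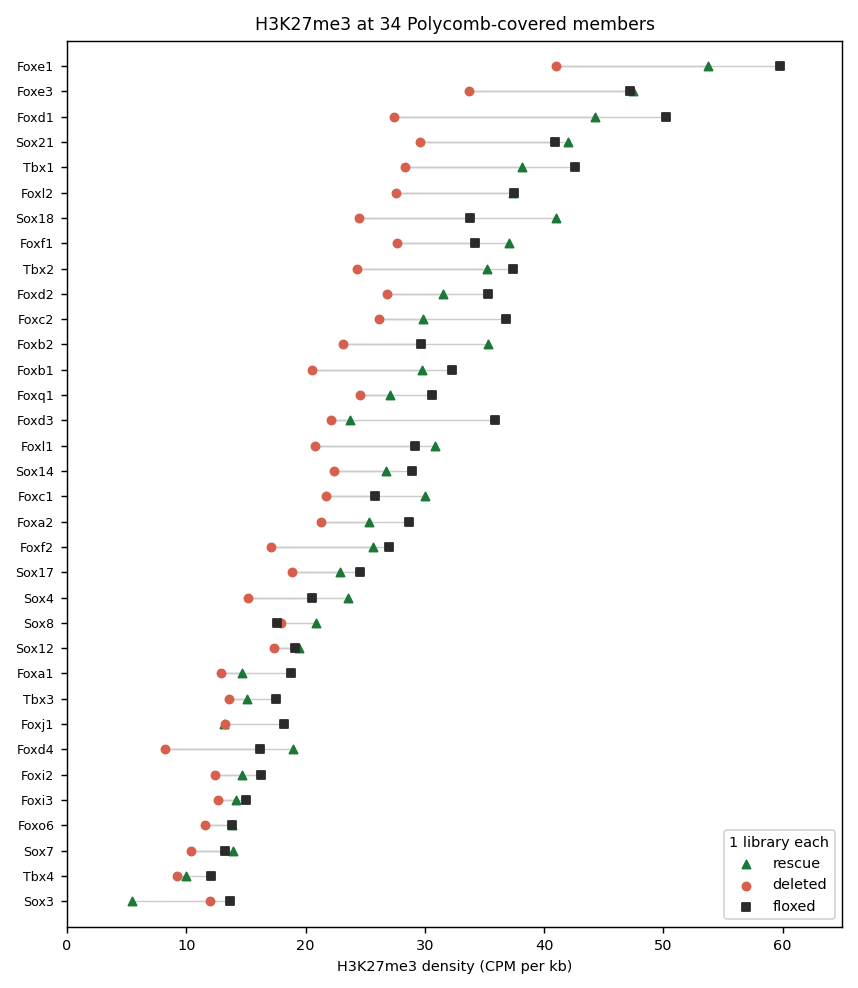
H3K27me3 density (CPM per kb) of 34 of the 35 Polycomb-covered members in the rescue (triangle), deleted (circle) and floxed (square) libraries, 1 library each, ordered by mean density. The deleted value lies left of the floxed value in 33 of 34 rows, the exception being Sox8; Sox3 and, by a small margin, Foxj1 have their lowest value in rescue.

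Several members sit side by side. Foxf1, Foxc2 and Foxl1 follow each other on chromosome 8 with gaps of 28.0 and 8.79 kb, and Foxd2 and Foxe3 lie 15.5 kb apart on chromosome 4. All 5 were covered, with mean densities of 33.0, 30.9 and 26.9 CPM per kb in the first group and 31.2 and 42.8 CPM per kb in the pair. Tbx2 and Tbx4, limb and heart regulators 44.4 kb apart on chromosome 11, had 32.3 and 10.4 CPM per kb, and Foxq1 and Foxf2, 64.8 kb apart on chromosome 13, had 27.4 and 23.2. H3K27me3 can spread over neighbouring genes, so these genes are not independent observations.

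The 12 doubly marked members were Foxb2, Foxc1, Foxd1, Foxe1, Foxe3, Foxf1, Foxf2, Foxl2, Foxq1, Sox7, Tbx1 and Tbx2. They made up 15.8% of the family, compared with 1.09% of named genes, where both shares include genes with too few H3K27me3 counts to qualify. Their H3K4me3 reached the level of the active class, with a median of 130.05 CPM (43.2 to 372) against 139 CPM (57.2 to 365) in the 11 active members, both as means of 3 libraries. Foxq1, a forkhead gene of epithelium and hair (chromosome 13, 31558170 to 31560976), had the highest mean H3K4me3 of the 76 members, with 407, 354 and 353 CPM in the rescue, deleted and floxed libraries, from 161, 149 and 228 counts. In the deleted and floxed libraries Foxj2, described below, was higher. Foxq1 carried 27.1, 24.6 and 30.6 CPM per kb of H3K27me3 in the rescue, deleted and floxed libraries. Foxc1, a mesoderm and eye gene (chromosome 13, 31806646 to 31810635), had 225, 193 and 184 CPM of H3K4me3 and 30.0, 21.7 and 25.8 CPM per kb of H3K27me3 in rescue, deleted and floxed. Whether both marks sat on the same chromosomes or in different cells cannot be told from separate immunoprecipitations.

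Most of the 11 active members were broadly expressed forkhead genes almost free of H3K27me3. Foxj2, Foxj3, Foxk1, Foxk2, Foxm1, Foxn2 and Foxo4 had mean H3K27me3 densities of only 0.06 to 0.35 CPM per kb. Foxj2, a broadly expressed forkhead activator (chromosome 6, 122820184 to 122845366), had 349, 368 and 378 CPM of H3K4me3 in rescue, deleted and floxed, from 138, 155 and 244 counts. Foxm1, which drives mitotic genes, had 286, 273 and 219 CPM, and Foxk1, a broadly expressed repressor, had 187, 204 and 188 CPM in rescue, deleted and floxed. Foxo4, a nutrient-responsive Foxo factor, had 167, 133 and 159.6 CPM in the same libraries, with 0, 1 and 2 H3K27me3 counts over its span. In these 4 genes the 3 libraries lay within 1.5 times of each other for H3K4me3.

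Foxo1, Sox30 and Tbx15 carried more H3K27me3 than the other active members. Foxo1, a factor of the insulin and growth factor pathway (chromosome 3, 52268337 to 52350109), had 6.005, 7.72 and 7.57 CPM per kb in rescue, deleted and floxed, from 2064, 1601 and 1513 counts over its 81773 bp. Sox30, a gene of the male germline, had 3.87, 3.52 and 4.21 CPM per kb of H3K27me3 and 98.7, 143 and 108 CPM of H3K4me3 in the same libraries. Tbx15, a gene of skeleton and fat, had 2.39, 2.12 and 2.56 CPM per kb and 134, 155 and 158 CPM. Sox1, a neural SoxB gene, had 65.8, 59.4 and 46.5 CPM of H3K4me3 and 0 H3K27me3 counts in all 3 libraries, but its span lies inside the counted gene Gm5607. Of 1593 named genes wholly inside another counted gene, 1309 (82.2%) had 0 H3K27me3 counts in all 3 libraries, compared with 896 of 19121 genes (4.69%) that touch no other, so the H3K27me3 state of Sox1 was not measured. The same holds for Sox2, which lies inside Sox2ot and had 0 H3K27me3 counts with 3, 11 and 4 H3K4me3 counts in rescue, deleted and floxed.

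Of 13 members listed as working in blood cells, 8 had H3K4me3 at the minimum level: Foxo1, Foxo4, Foxk1, Foxk2, Foxj2, Foxj3, Foxn2 and Foxm1. That level was met by 30.3% of all members and 25.1% of named genes. The list was chosen with earlier results of these data known and includes broadly expressed genes, so its share was not read as a trait of blood factors. Sox4, a progenitor and leukemia-associated SoxC gene (chromosome 13, 28948919 to 28953699), was the 1 covered gene on this list. It had 23.6, 15.2 and 20.5 CPM per kb of H3K27me3 and 8, 11 and 17 H3K4me3 counts in rescue, deleted and floxed. Foxo3, Foxp1, Foxp4 and Foxn3 had between 0 and 2 H3K4me3 counts in each library and H3K27me3 means of 0.08 to 1.10 CPM per kb. As with Ptprc, these near-empty windows were not read as absence of H3K4me3.

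**Figure D3:**
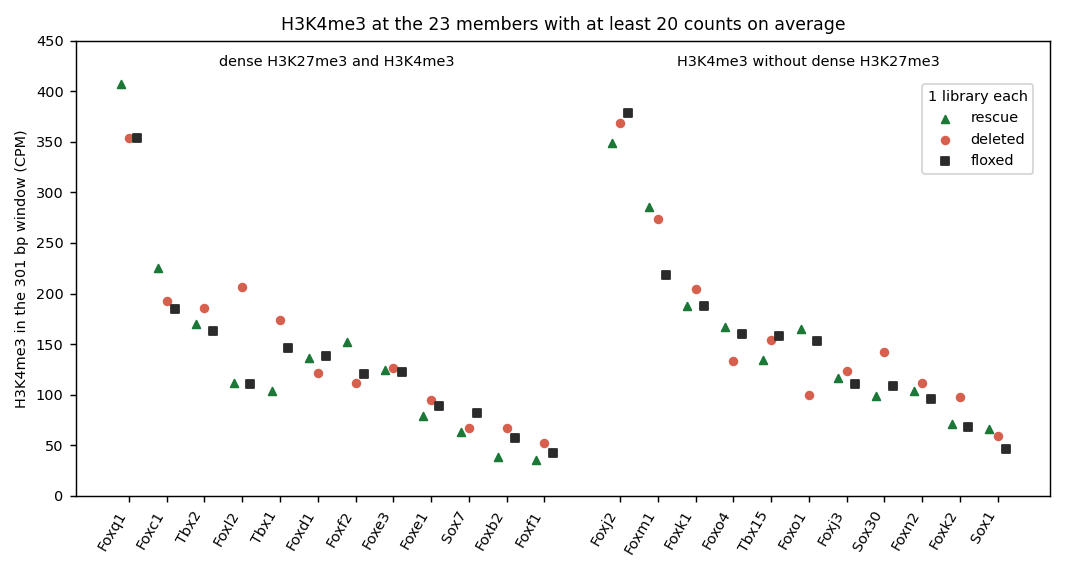
H3K4me3 in the counted window (CPM) of the 23 members with a mean of at least 20 counts, in the rescue (triangle), deleted (circle) and floxed (square) libraries, 1 library each; the 12 doubly marked members are at the left and the 11 active ones at the right, each ordered by mean. Foxq1 (353 to 407 CPM) and Foxj2 (349 to 378 CPM) head their classes by mean, and among the doubly marked genes Foxl2 and Tbx1 show the widest gaps between libraries in CPM.

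Genotypes were compared by a size rule. To be called, a gene averaging 20 counts or more had to differ by 1.5 times or more in CPM, with an exact conditional binomial 95% interval of the ratio that left out 1. Intervals stand in parentheses after a ratio and cover counting error only. For H3K27me3, 62 members could be assessed (35 forkhead, 16 Sox and 11 T-box genes) and for H3K4me3, 23 (17, 3 and 3). The 14 not assessed for H3K27me3 were Sox1, Sox2, Sox15, Foxh1, Foxp3, Foxr2, Foxs1, Tbx6, Tbx22 and the active Foxk1, Foxk2, Foxm1, Foxn2 and Foxo4.

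H3K27me3 was lower in the deleted than in the floxed library at 8 of 62 members (12.9%) and higher at 1. Over all 10604 genes assessed, 5.39% were lower and 4.72% higher. Foxd4, a neural forkhead gene, had 19.0, 8.24 and 16.2 CPM per kb in the rescue, deleted and floxed libraries, from 187, 49 and 93 counts. The ratio of deleted over floxed was 0.508 (0.352 to 0.725), the lowest of the 62 members. Foxd1 had 458, 171 and 302 counts in rescue, deleted and floxed, and a ratio of 0.546 (0.450 to 0.661) for deleted over floxed. In both genes the deleted library was the lowest, and the ratio of rescue over floxed was 1.17 for Foxd4 and 0.882 for Foxd1, neither of them called. The neural crest factor Foxd3 had 23.8, 22.1 and 35.9 CPM per kb in rescue, deleted and floxed, with a ratio of 0.616 (0.492 to 0.770); here rescue lay with deleted, well below floxed. Foxb1, a diencephalon factor, had 29.7, 20.5 and 32.3 CPM per kb in those libraries and a ratio of 0.635 (0.520 to 0.775), and Foxf2, a mesenchyme factor, had 603, 242 and 369 counts in rescue, deleted and floxed and a ratio of 0.632 (0.535 to 0.746).

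The T-box genes Tbx1 and Tbx2 were lower as well. Tbx2 (chromosome 11, 85832615 to 85841948) had 1381, 576 and 854 H3K27me3 counts in rescue, deleted and floxed, and a ratio of 0.650 (0.584 to 0.724) for deleted over floxed, the narrowest interval among the 8. Tbx1 had 842, 378 and 547 counts in those libraries, with a ratio of 0.666 (0.583 to 0.761), just past the limit of 1.5, and its span overlaps another RefSeq gene. Foxi1, a factor of ion-transporting cells in inner ear and kidney, which lies below the density limit, had 96, 38 and 64 counts in rescue, deleted and floxed, with a ratio of 0.572 (0.373 to 0.868). No Sox gene was called among 16 assessed, although 12 of them had a log2 ratio below 0. The 1 higher member was Foxo3, a Foxo factor that guards stem cell quiescence, with 42, 26 and 11 counts in rescue, deleted and floxed and a ratio of 2.28 (1.09 to 5.11). Its mean density was 0.09 CPM per kb, so this difference lies in sparse reads over a span of 90957 bp that overlaps another gene.

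As a class, covered members lay lower in the deleted library by about the amount of covered genes in general. Their median log2 ratio of deleted over floxed was -0.43, with 34 of 35 below 0, compared with -0.42 for all 1061 covered genes, of which 995 were below 0. The median of all assessed genes was 0.02. Of covered members, 7 of 35 were called lower, and of all covered genes 23.7%. Doubly marked members had a median of -0.46 with 4 of 12 called lower, near the -0.44 and 26.2% of all 290 doubly marked genes. Polycomb-only members had a median of -0.40 with 3 of 23 called lower, and the share for all Polycomb-only genes is not given here. By family, the medians of covered members were -0.45 in 22 forkhead, -0.37 in 9 Sox and -0.48 in 4 T-box genes. The forkhead genes of neural, sensory, kidney and gonad development had a median of -0.48 with 5 of 13 called lower. Those grouped under mesoderm and vessels had one of -0.40 with 1 of 6. These counts are small and were not read as a difference between classes or roles. The 5 active members assessed had a median of -0.14 and 0 calls, and the 27 assessed members outside the covered class one of -0.14. Median log2 ratios of other Polycomb-covered developmental genes were -0.60 for 29 Hox genes, 18 of them called lower, and -0.54 for 67 non-Hox homeobox and Pax genes, 27 of them called lower. Pooled over the 35 covered members, H3K27me3 took 0.369% of the rescue library (exact binomial 0.363% to 0.375%), 0.294% of the deleted library (0.287% to 0.3002%) and 0.396% of the floxed library (0.389% to 0.404%).

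**Figure D4:**
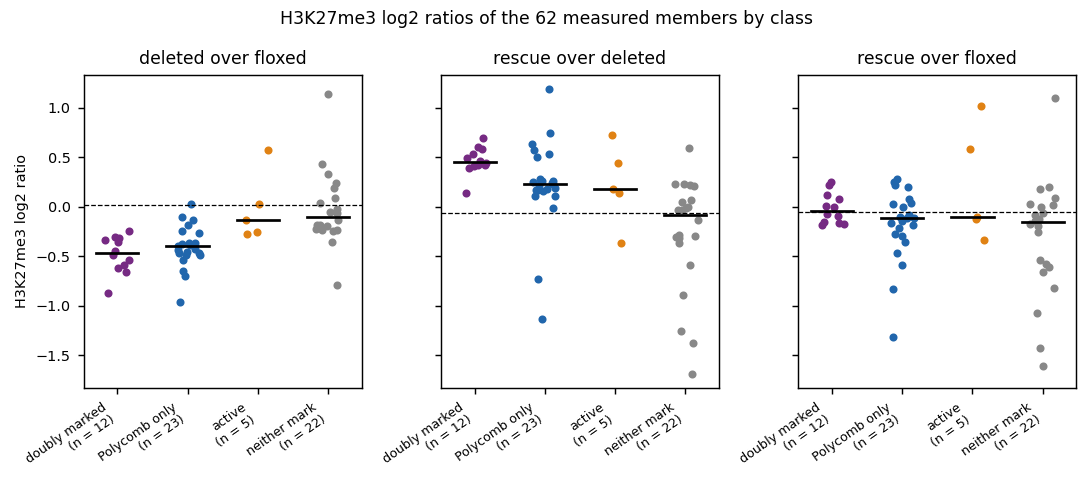
H3K27me3 log2 ratios of the 62 assessed members by class, for deleted over floxed, rescue over deleted and rescue over floxed; each point is 1 gene, black bars are class medians and the dashed line is the median of all 10604 genes assessed. In deleted over floxed the covered classes lie lowest, with medians of -0.46 and -0.40, and in rescue over deleted they lie highest.

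These counts depend on what the libraries are scaled to. With 1429 olfactory and vomeronasal receptor genes of sensory neurons as the scale, the median log2 ratio of all genes for deleted over floxed moved to -0.16. On that scale 19 members were lower and 0 higher, beside 11.7% lower and 2.11% higher over all genes assessed, and the covered members' median was -0.61. The edgeR TMM and DESeq2 factors left 8 lower and 1 higher.

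Between the rescue and deleted libraries, most covered members lay higher in rescue, while 2 covered and 4 other members were called lower. In all, 7 of 62 members were called higher and 6 lower, and over all genes assessed 7.07% were higher and 11.3% lower. This comparison shares the deleted library with the one above, so a low deleted value alone gives opposite signs in both. The higher members were Foxb2, Foxd1, Foxd4, Foxf2, Foxi1, Sox4 and Sox18. Foxd4 had the largest ratio of rescue over deleted, 2.30 (1.67 to 3.22). Sox18 had 41.0, 24.5 and 33.8 CPM per kb in rescue, deleted and floxed, and a ratio of 1.68 (1.35 to 2.10). Foxd1 had a ratio of 1.62 (1.35 to 1.94), Sox4 1.56 (1.25 to 1.95), Foxb2, a neural forkhead gene, 1.53 (1.19 to 1.97), Foxi1 1.52 (1.04 to 2.28) and Foxf2 1.503 (1.29 to 1.75), the last just past the limit of 1.5. Foxd1, Foxd4, Foxf2 and Foxi1 were called in opposite directions in the 2 comparisons, and 0 members were called the same way in both. The shared deleted library favours opposite calls, and the share of all assessed genes with such calls is not given here. These counts were therefore not read as a result about the members. The covered members' median log2 ratio was 0.28 with 32 of 35 above 0, beside 0.32 for all covered genes and -0.06 for all genes assessed. Under TMM scaling 10 members were higher and 6 lower, beside 8.82% higher and 9.35% lower over all genes assessed. On the receptor gene scale 12 were higher and 6 lower, beside 9.97% and 8.55%.

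The members lower in rescue than in deleted included Foxn1, Foxn3, Sox3, Sox9 and Sox11. Sox11, a SoxC gene of embryonic neurons (chromosome 12, 27334268 to 27342718), had 0.929, 3.08 and 2.90 CPM per kb in the rescue, deleted and floxed libraries, from 33, 66 and 60 counts, with a ratio of 0.302 (0.192 to 0.465) for rescue over deleted. Sox3, an X-linked SoxB gene, had 5.41, 12.03 and 13.7 CPM per kb in those libraries and a ratio of 0.450 (0.302 to 0.667). Sox9, the cartilage and testis factor, had 4.03, 7.54 and 8.55 CPM per kb there and a ratio of 0.535 (0.401 to 0.713). In these 3 Sox genes the rescue library was lowest, with deleted and floxed close together. The thymus gene Foxn1 had 28, 45 and 45 counts in rescue, deleted and floxed, and a ratio of 0.375 (0.225 to 0.615). Foxn3, a checkpoint forkhead gene whose span overlaps another counted gene, held 254, 366 and 262 counts in rescue, deleted and floxed, and its ratio was 0.419 (0.355 to 0.493), the deleted library being the highest in CPM.

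**Figure D5:**
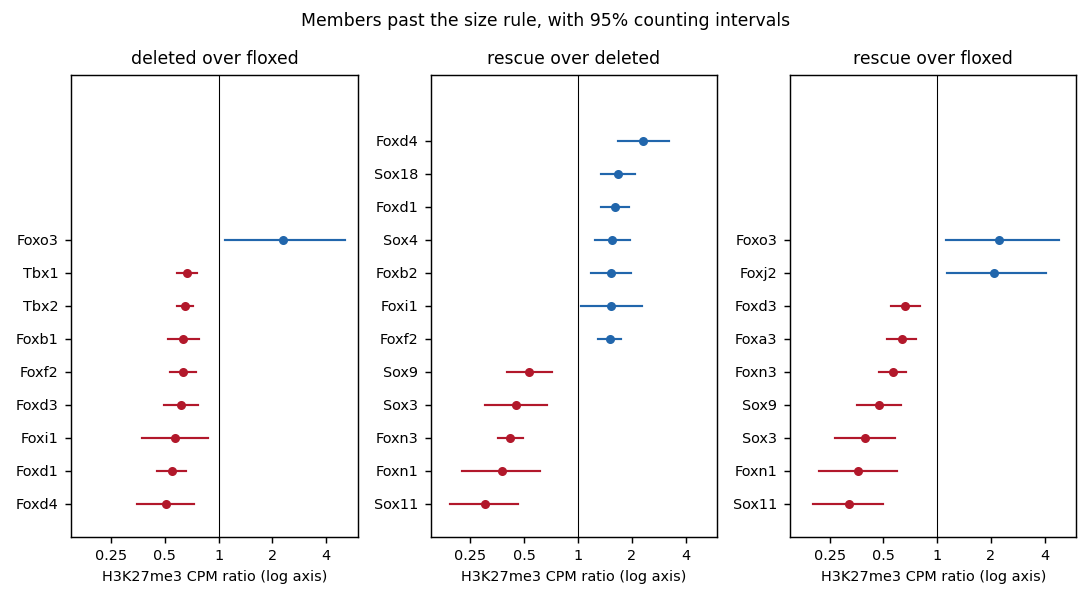
CPM ratios of H3K27me3 (points, log axis) with exact 95% counting intervals (lines) for the members drawn that met the size rule in deleted over floxed, rescue over deleted and rescue over floxed; red is lower and blue higher in the library named first. Calls ran 8 lower and 1 higher, 6 lower and 7 higher, and 8 lower and 2 higher, of which 1 lower member in each of the last 2 comparisons is not drawn.

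Against floxed, the rescue library was lower at 8 of 62 members and higher at 2, beside 8.05% lower and 5.72% higher over all genes assessed. Sox11, Sox3, Sox9, Foxn1 and Foxn3 were again lower, with ratios of rescue over floxed of 0.320, 0.396, 0.471, 0.362 and 0.564; the rescue library is shared with the comparison before. Foxd3 was also lower, at 0.663 (0.548 to 0.802), and so was Foxa3, a liver and gut factor with 5.59, 6.88 and 8.81 CPM per kb in rescue, deleted and floxed, at 0.634 (0.526 to 0.765). The higher members were Foxo3 at 2.22 (1.12 to 4.78) and Foxj2, with 50, 22 and 14 counts in rescue, deleted and floxed, at 2.08 (1.13 to 4.07). Both are sparsely covered, and both overlap another RefSeq gene. Of the 7 covered members that were lower in deleted than in floxed, 6 were not called between rescue and floxed, and Foxd3 was. Calls were rare in this comparison among all 1061 covered genes (4.05% lower and 0.943% higher), and both comparisons use the floxed library. The 6 genes without a call were therefore not read as a return to the floxed level. The covered members' median log2 ratio of rescue over floxed was -0.10, the same as the -0.10 of all covered genes, beside -0.05 for all genes assessed.

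H3K4me3 calls were few among the 23 members assessed, and their number was not read as a result about the members. Between deleted and floxed, 1 of 23 members was lower and 1 higher (4.35% each). This is near the shares over all 6681 genes assessed, 4.39% lower and 3.02% higher. Foxo1 had 165, 99.8 and 153 CPM in the rescue, deleted and floxed libraries, from 65, 42 and 99 counts, and its ratio of deleted over floxed was 0.651 (0.442 to 0.942). Foxo1 was lowest in the deleted library, with rescue and floxed close together, and the ratio of rescue over deleted was 1.65 (1.10 to 2.49). Foxl2 went the other way, with 111, 207 and 110.0 CPM in rescue, deleted and floxed and a ratio of 1.88 (1.36 to 2.61) for deleted over floxed. Its rescue and floxed values were nearly equal, and the ratio of rescue over deleted was 0.538 (0.366 to 0.782). For Foxo1 and Foxl2 both calls use the deleted library, so a shifted deleted value alone gives opposite signs. They were not read as a return to the floxed level. At Foxl2, H3K27me3 was 37.4, 27.5 and 37.5 CPM per kb in the same libraries, and its ratio of deleted over floxed, 0.735 (0.6003 to 0.898), did not reach the size rule.

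Between rescue and deleted, 2 of 23 members were lower in H3K4me3 (Foxl2 and Tbx1) and 1 higher (Foxo1), beside 5.97% lower and 4.49% higher over all genes. Tbx1 had 104, 174 and 146 CPM in rescue, deleted and floxed, and a ratio of 0.598 (0.398 to 0.888) for rescue over deleted. Between rescue and floxed, 0 members were called in either direction, beside 3.92% lower and 1.92% higher over all genes. The median log2 ratio of deleted over floxed was 0.08 in doubly marked members, beside 0.19 in all 290 doubly marked genes. In active members it was 0.16, beside -0.04 in all active genes. On the receptor gene scale the median of all genes moved to 0.29 for rescue over deleted and to 0.24 for rescue over floxed. There the members' median for rescue over deleted turned to 0.17, against -0.08 on library totals, with 1 member lower and 3 higher, beside 2.77% lower and 15.8% higher over all genes. For rescue over floxed 2 members were higher on that scale, beside 9.53% of all genes. Windows of Foxb1, with 2, 12 and 17 counts in rescue, deleted and floxed, Foxp2, with 6, 16 and 22, and Tbx3, with 6, 16 and 26, were under the minimum and were not called.

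The T-box genes T, Eomes, Tbr1 and Mga lie outside the symbol rule, and all 4 were assessed for H3K27me3. Their log2 ratios of deleted over floxed were all below 0, with a median of -0.43, and 1 of the 4 was called lower, beside 5.39% of all genes. This was Tbr1, a cortical neuron gene, with 1099, 463 and 723 counts in rescue, deleted and floxed and a ratio of 0.617 (0.548 to 0.695). Eomes, a gene of cytotoxic lymphocytes and early mesoderm, had 613, 308 and 396 H3K27me3 counts and 41, 48 and 63 H3K4me3 counts in those libraries, and no pair was called. Among 11 PRC2 genes found, 5 had enough H3K4me3 to be assessed, and 2 of them were lower in rescue than in deleted, beside 5.97% of all genes. Suz12, a core PRC2 subunit, had 15, 32 and 43 H3K4me3 counts in rescue, deleted and floxed and a ratio of 0.499 (0.251 to 0.949) for rescue over deleted. Mtf2, a PRC2 accessory subunit, had 24, 44 and 65 H3K4me3 counts in those libraries, with 0.581 (0.338 to 0.976) for rescue over deleted and 0.603 (0.361 to 0.976) for rescue over floxed, both called lower. Over all genes, 3.92% were lower in H3K4me3 in rescue than in floxed. Among 19 PRC1 genes, 5 were assessed for H3K4me3, and 1 of them, the PRC1 subunit gene Bmi1, was higher in rescue than in deleted with 51, 30 and 49 counts in rescue, deleted and floxed, at 1.81 (1.13 to 2.94), and higher than in floxed, at 1.70 (1.13 to 2.57). The shares of all genes that were higher in these 2 comparisons were 4.49% and 1.92%. Bmi1 was also the 1 of 9 PRC1 genes assessed for H3K27me3 that was lower in deleted than in floxed, beside 5.39% of all genes. It had 164, 55 and 87 counts in rescue, deleted and floxed, at 0.609 (0.427 to 0.864). For rescue over deleted, Bmi1 at 1.80 (1.32 to 2.49) and Phc3 at 2.00 (1.05 to 4.04) were called higher in H3K27me3 and Pcgf2 lower, at 0.420 (0.259 to 0.673), all 3 being PRC1 genes. Over all genes assessed, 7.07% were higher and 11.3% lower. Pcgf2 was lower in rescue than in floxed as well, at 0.372 (0.231 to 0.592), beside 8.05% of all genes. Neither of the 2 PRC2 genes assessed for H3K27me3 was called. With so few genes assessed, these calls were not read as results about PRC1 or PRC2. No PRC2 or PRC1 gene assessed for H3K4me3 was called between deleted and floxed.

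Flag summits are the positions listed for the M2 immunoprecipitations. The rescue library, which holds the tagged Hhex, had 429 summits, the deleted library 220 and the floxed library 475, the last 2 without the tag. Within 10 kb of a gene span there were summits at 0 of 76 members in each of the 3 libraries, beside 0.582%, 0.324% and 0.692% of named genes in the rescue, deleted and floxed libraries. Within 50 kb the 1 member was Sox18, 29.2 kb from a rescue summit at position 181640639 of chromosome 2, with a −log10 score of 3.55 given by the authors. At this distance 1.49%, 0.760% and 1.69% of named genes had a summit in the rescue, deleted and floxed libraries. The 1 of 76 members is thus near the share of all genes. Binding too weak for the authors' lists was not measured here.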

How the data were processed

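Whole-number counts per gene for H3K27me3 and H3K4me3 were used as deposited by the authors, not normalised. Per the submitters' processing notes, featureCounts, MACS2 and build mm10 were used, without versions; an aligner is not named in any source used here. The deposited Flag files list summits, each with the authors' −log10 score. No input library was used here. Rows without a symbol (568, with 0.608% to 0.739% of a library's counts) were left out. CPM were taken over the named genes, with 1 library in each of 3 genotypes for each antibody, so no replicate test could be made. For log2 ratios 1 count was added, scaled to library size. Positions came from RefSeq GRCm38.p6 by Entrez identifier (25275 named genes, all 76 members), without strand or exons, so exon and intron positions were not set. Members overlapping another RefSeq gene numbered 23. Named were called members (up to 10 in each direction), the 10 highest for each mark, doubly marked members, the blood list and neighbours within 100 kb; other genes serve as examples chosen after their values were seen. One member counted in the totals is not reported here by name or drawn by row. Members and lists were chosen with earlier results of these data known. Scaling with edgeR 4.0.16 and DESeq2 1.42.0 factors was an alternative, among others. Python 3.11.15, SciPy 1.17.1 and R 4.3.3 were used.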

Additional observations from a re-analysis of the deposited data

How the results depend on the processing

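Of 143 alternatives to 26 results, 114 left counts within 1.5 times and medians within the typical counting interval of their genes to either side. The 45 alternatives to medians and 12 to class sizes were among them, but 1 median changed sign: H3K4me3 of active members for rescue over deleted was 0.17 on the receptor gene scale, against -0.08 on library totals. Of 84 alternatives to counts of called members, 28 moved the count by over 1.5 times. For H3K27me3, deleted against floxed, 8 lower became 19 on the receptor gene scale and 0 at a ratio of at least 2, and 1 higher became 0 on the receptor gene scale, with a mean of at least 100 counts, or without members overlapping another gene. For rescue against deleted, 6 lower became 3 with at least 100 counts, and 7 higher became 12 on the receptor gene scale and 1 at a ratio of 2. For rescue against floxed, 8 lower became 5 with at least 100 counts and 4 at a ratio of 2, and 2 higher became 0 with at least 100 counts or without overlapping members.

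For H3K4me3, deleted against floxed, 1 lower became 0 with at least 100 counts or a ratio of 2, and 1 higher became 0 under both and 2 with no minimum count. For rescue against deleted, 2 lower became 1 on the receptor gene scale or without overlapping members, 0 with at least 100 counts or a ratio of 2, and 4 with no minimum; 1 higher became 3 on the receptor gene scale and 0 with at least 100 counts or a ratio of 2. For rescue against floxed, 0 lower became 2 with no minimum, and 0 higher became 2 on the receptor gene scale and 1 with no minimum. Members near a rescue Flag summit went to 1 at 50 kb. The stricter limits leave fewer genes to call by construction, and the cause of the other moves was not tested. No paired analysis was possible because each group has 1 library and the labels carry no replicate numbers. For H3K4me3, 23 of 76 members had enough counts to be assessed.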

Other observations

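Genes within 500 kb of the called members were called the same way at shares set here beside those of all genes assessed. Around the 8 members lower in deleted than in floxed, 3 of 41 assessed neighbours (7.32%) were also lower, beside 5.39%. Around members called between rescue and deleted, 4 of 33 neighbours (12.1%) were higher with them, beside 7.07%, and 4 of 24 (16.7%) lower, beside 11.3%. Around the members lower in rescue than in floxed, 9 of 48 (18.8%) were lower, beside 8.05%. Of those 9, 6, the homeobox gene Six5 among them, lay around Foxa3, which had 21 neighbours assessed. Foxd4 had 3 of 5 neighbours (Dock8, Kank1 and Tmem252) called higher with it in rescue against deleted. These are small counts, and no test was made of them.

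A more distant Flag summit recurred in the libraries without the tag. Tbx20 had a summit 179 kb away in each of the rescue, deleted and floxed libraries, with −log10 scores from the authors of 13.6, 22.6 and 10.6. Scores of separate lists were not compared.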
